A study of Mus musculus with 19 samples.

Results

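The genes described here are the BH3-only genes Pmaip1, Bid, Bbc3, Bcl2l11, Hrk, Bmf and Bad, the pore-forming effectors Bax and Bak1, and Apaf1. They were taken by name: all probes whose gene name in the array files equals one of these 10 symbols, which gave 18 of the 41174 gene probes. RNA came from dissociated mouse hippocampal neurons at day 21 in vitro, treated for 6 h in 6-well plates with vehicle (5 arrays), 100 µM AP5 (5 arrays), 100 nM NVP-AAM077 (called NVP, 4 arrays) or 1 µM of a compound labelled Ro25-4891 (called Ro25, 5 arrays). AP5 and NVP are competitive antagonists at the glutamate site of NMDA receptors, the calcium-passing channels that glutamate opens at excitatory synapses, and NVP has some preference for receptors that contain GluN2A. The number in the label of Ro25 is not that of the widely used GluN2B antagonist with the same prefix, so its identity is not settled here. The 3 doses differ and are not matched, and no strain or age of the animals is stated. The series title names neuronal survival under basal NMDA receptor activity, which is the question these death genes bear on. Each array set neuron RNA (red) against 1 commercial universal mouse reference RNA (green), so every value below is log2 of neuron over reference, probe by probe. Levels of different probes are not compared. Nothing in the labels says whether replicates were separate cultures, so a p-value here reflects only how far these samples spread, and that spread may be technical.

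In the intrinsic pathway of apoptosis, BH3-only proteins sense stress and bind the anti-apoptotic proteins of the Bcl2 family or activate Bax and Bak directly. Active Bax and Bak permeabilize the outer mitochondrial membrane, and the cytochrome c that escapes assembles with Apaf1 into the apoptosome, which activates caspase-9. In neurons several BH3-only genes are known to be controlled at the level of transcription, while Bax, Bad and Bid proteins are also controlled by cleavage, phosphorylation or movement, which arrays of RNA do not measure.

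Of the 18 probes, 15 passed the filter (red well above background on at least 4 of the 19 arrays), and each of the 10 genes kept at least 1 of them. The 3 that failed were not well above background on any array: A_51_P484880 and A_52_P348214 of Bcl2l11, and A_52_P78830 of Bmf. They do not show that those transcripts were absent. Positions below are those the files give on the mm8 mouse assembly. Exons and UTRs were not assigned, since no annotation of that build was used.

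Promoters are shown for 4 of the genes whose RNA rose with AP5, so that the start regions of genes that moved together can be read beside their values. They are the 250 bases before the annotated start from RefSeq on GRCm38.p6, a different build from the probes, and for Bcl2l11 the start farthest upstream. Of the 10 genes, 9 had windows in the table, 15 windows in all, and Pmaip1 was not among them. Capitals mark a FOXO match in Bcl2l11 and a MEF2 match in Hrk; Bid and Apaf1 had no match to any motif searched.
Bid, GRCm38.p6 chr6:120916825-120917074, minus strand: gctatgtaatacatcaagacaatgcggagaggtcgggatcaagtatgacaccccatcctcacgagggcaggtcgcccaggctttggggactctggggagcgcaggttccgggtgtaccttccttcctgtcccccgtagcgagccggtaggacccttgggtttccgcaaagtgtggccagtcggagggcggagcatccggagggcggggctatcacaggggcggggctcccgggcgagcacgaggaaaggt
Bcl2l11, GRCm38.p6 chr2:128125788-128126037, plus strand: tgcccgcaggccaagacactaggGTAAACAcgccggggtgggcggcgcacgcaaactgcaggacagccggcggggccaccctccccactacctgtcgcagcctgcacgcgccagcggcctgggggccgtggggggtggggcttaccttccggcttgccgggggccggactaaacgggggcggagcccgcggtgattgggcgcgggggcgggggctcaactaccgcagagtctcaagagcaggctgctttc
Hrk, GRCm38.p6 chr5:118169514-118169763, plus strand: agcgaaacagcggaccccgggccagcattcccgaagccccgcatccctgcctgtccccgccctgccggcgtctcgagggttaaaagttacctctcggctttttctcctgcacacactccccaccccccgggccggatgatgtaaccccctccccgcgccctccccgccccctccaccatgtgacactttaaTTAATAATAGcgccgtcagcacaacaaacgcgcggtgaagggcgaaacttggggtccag
Apaf1, GRCm38.p6 chr10:91082744-91082993, minus strand: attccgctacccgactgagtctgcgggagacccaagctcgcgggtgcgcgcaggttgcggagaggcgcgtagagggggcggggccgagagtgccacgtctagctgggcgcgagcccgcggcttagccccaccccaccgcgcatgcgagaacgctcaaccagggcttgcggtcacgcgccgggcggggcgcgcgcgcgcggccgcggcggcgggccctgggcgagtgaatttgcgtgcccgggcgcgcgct

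The motifs were searched on both strands in all 32851 windows of the table at the same length. FOXO (GTAAACA or ATAAACA) was in 2 of the 15 member windows and in 7.1% of all windows. The 2 were those of the printed Bcl2l11 start and of 1 of the 3 starts of Bbc3. The Bcl2l11 window not printed had no match. MEF2, by name, was in 1 member window and in 2.92% of all windows. The p53 half-site, by name, was in 2 member windows, those of Bax and of 1 start of Bmf, and in 7.13% of all windows. CRE (TGACGTCA) and AP-1 (TGANTCA) were in none of the member windows and in 1.55% and 6.75% of all windows. No member window held more than 1 match, so no matches overlapped. The first base of the match lay 227 bases before the start in Bcl2l11 and 59 bases before it in Hrk. The printed windows had 63.6% (Bid), 72% (Bcl2l11), 63.2% (Hrk) and 75.6% (Apaf1) G and C, against a median of 52.4% over all windows. A match is a string of letters and not a shown site of binding.

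With AP5, 5 of the 7 BH3-only genes and Apaf1 rose, and no member fell. The rise was about 2-fold for Pmaip1 and Bid, smaller for Bbc3 and Apaf1, and smallest for Hrk and Bcl2l11. Bmf, Bad, Bax and Bak1 did not pass the test. By probe, 7 of 15 were called higher and 0 lower (limma, Benjamini-Hochberg over all 28653 probes, adjusted p below 0.05), which is 46.7% of the member probes. Over all probes 17% were called and 10.2% were called higher. The median log2 fold change of the 15 member probes was 0.12, against 0.01 for all probes. The members were chosen with earlier results of these data known, so these shares and medians do not test the set. All AP5 arrays lay above all vehicle arrays for 4 member probes, 1 each of Pmaip1, Bid, Bbc3 and Apaf1, and the groups did not overlap, in either direction, for 10.9% of all probes. In these bulk samples, a change in the cells' makeup and a change in RNA per cell cannot be told apart.

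**Figure D1:**
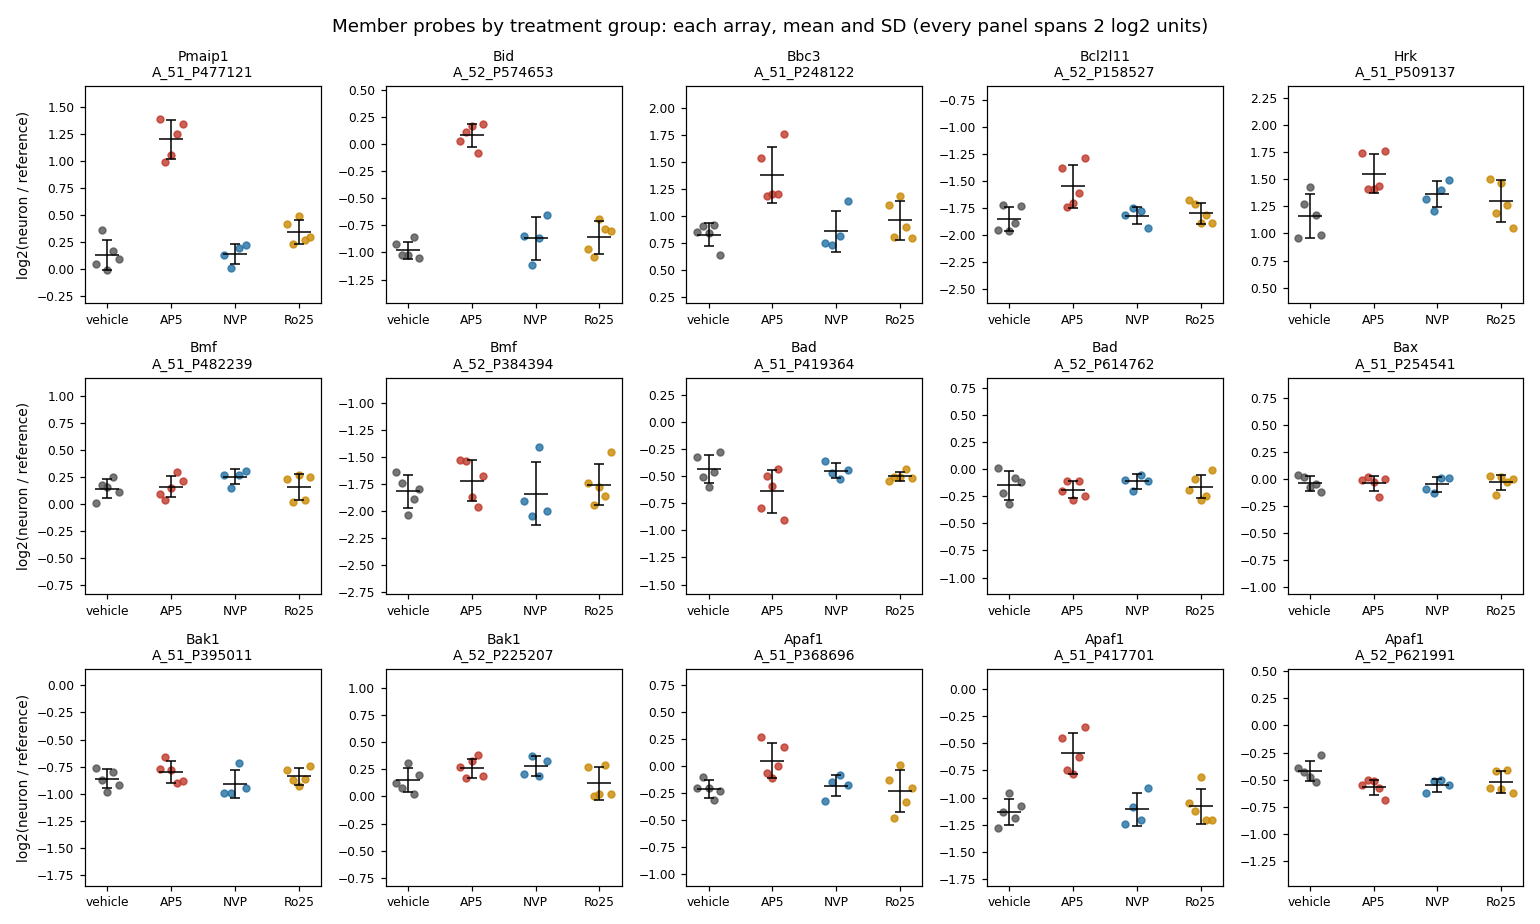
Log2 of neuron over reference (y axis) for the 15 member probes that passed the filter, by treatment group (x axis); points are single arrays, and bars are the group mean and SD of 5 arrays (4 for NVP). Every panel spans 2 log2 units. The AP5 points lie above those of the other 3 groups for Pmaip1, Bid and Apaf1 A_51_P417701, and the Bax points of all groups lie between -0.17 and 0.04.

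Pmaip1 encodes Noxa, a BH3-only protein that binds chiefly Mcl1, and its probe A_51_P477121 lies at chr18:66590803-66590862 on the plus strand. With AP5 its log2 ratios were 1.39, 0.99, 1.05, 1.25 and 1.34. With vehicle they were 0.05, 0.36, -0.01, 0.17 and 0.09. The lowest AP5 array was thus well above the highest vehicle array, vehicle 2. The log2 fold change was 1.07 ± 0.08 (SE), or 2.11-fold with a 95% interval of 1.86 to 2.38, at an adjusted p of 8.44e-08 (limma). With NVP the ratios were 0.13, 0.01, 0.20 and 0.22, and with Ro25 they were 0.42, 0.23, 0.49, 0.27 and 0.30. The NVP arrays lay within the vehicle range, while the Ro25 arrays reached above it. Ro25 differed from vehicle by 0.21 (95% interval 0.03 to 0.39), which did not pass after adjustment (adjusted p = 0.791, limma). Every Ro25 array was above every NVP array, but NVP against Ro25 (-0.20, interval -0.38 to -0.01) had an adjusted p of 1. On the slide that held Ro25 2, 3 and 5 with vehicle 2, Ro25 minus vehicle was -0.02.

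Bid encodes the BH3-only protein that caspase-8 cleaves, which links death receptors to mitochondria; its probe A_52_P574653 lies at chr6:120859065-120859124 on the minus strand. AP5 arrays gave 0.03, 0.11, 0.17, -0.08 and 0.19, and vehicle arrays -0.92, -1.02, -1.02, -0.86 and -1.05. The groups were farther apart than either was wide. Bid rose with AP5 by 1.06 ± 0.08 (SE) on the log2 scale, or 2.09-fold (95% interval 1.85 to 2.35), with an adjusted p of 8.44e-08 (limma). NVP arrays gave -0.85, -1.12, -0.87 and -0.65, and Ro25 arrays -0.97, -1.04, -0.69, -0.78 and -0.80. NVP arrays ran past both ends of the vehicle range and Ro25 arrays past its upper end, and the differences from vehicle were 0.10 (interval -0.08 to 0.29) and 0.12 (interval -0.06 to 0.29). The median red signal of this spot was 971 with vehicle and 2800 with AP5, before normalization, and its green signal 1080 and 1280. Raw red medians also differed for probes that did not pass. They were 5500 and 6890 for Bax, and 447 and 346 for Bak1 A_52_P225207.

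Bbc3 encodes Puma, which binds all major anti-apoptotic members of the family and is a p53 target; its probe A_51_P248122 lies at chr7:15476576-15476635 on the plus strand. AP5 arrays gave 1.54, 1.19, 1.20, 1.20 and 1.76, and vehicle arrays 0.85, 0.91, 0.84, 0.92 and 0.64. AP5 1 and AP5 5 stood above the other 3 AP5 arrays, and the groups did not overlap. The log2 fold change was 0.54 ± 0.11 (SE), or 1.46-fold (95% interval 1.24 to 1.72), with an adjusted p of 0.00279 (limma). Means were 0.86 ± 0.19 (SD, n = 4) with NVP and 0.96 ± 0.18 (SD, n = 5) with Ro25. Neither differed from vehicle beyond its spread, at 0.02 (interval -0.23 to 0.28) and 0.13 (interval -0.11 to 0.37).

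Hrk encodes Harakiri, a BH3-only protein found largely in neurons, and its probe A_51_P509137 lies at chr5:118445659-118445718 on the plus strand. AP5 arrays gave 1.74, 1.41, 1.41, 1.44 and 1.76, and vehicle arrays 0.96, 1.27, 1.43, 1.17 and 0.99. The groups overlapped at vehicle 3, and AP5 1 and AP5 5 were again the highest. Hrk rose by 0.39 ± 0.10 (SE), or 1.31-fold (95% interval 1.12 to 1.52; adjusted p = 0.0154, limma). The call ended with the ratios scaled to 1 spread (0.26, adjusted p = 0.0609) and with the red channel alone (0.23, adjusted p = 0.299). It also ended with marked spots kept, that is, with spots that the scanner software marks as uneven or outlying left in the background correction (0.17, adjusted p = 0.942). The ratio deposited by Feature Extraction gave 0.63 (adjusted p = 0.0429, limma). The green signal of this spot was dim, with a median of 57.7 with vehicle and 60.7 with AP5. NVP and Ro25 gave 0.19 (interval -0.04 to 0.43) and 0.13 (interval -0.09 to 0.35) above vehicle, without passing the test.

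Bcl2l11 encodes Bim, a strong activator of Bax whose gene is a known target of FOXO factors and Jun in neurons. The probe that passed, A_52_P158527, lies at chr2:127853756-127853815 on the plus strand. AP5 arrays gave -1.38, -1.74, -1.70, -1.61 and -1.29, and vehicle arrays -1.95, -1.72, -1.96, -1.89 and -1.73. The groups overlapped at AP5 2, which lay below vehicle 2 and vehicle 5, and AP5 1 and AP5 5 were the highest. The log2 fold change was 0.30 ± 0.08 (SE), or 1.23-fold (95% interval 1.09 to 1.39; adjusted p = 0.0159, limma). Without AP5 1 it was no longer called (adjusted p = 0.0501), nor when only the 2 groups were fitted (adjusted p = 0.0579), nor with marked spots kept (adjusted p = 0.262). NVP and Ro25 gave 0.03 and 0.05. The other 2 probes of the gene were dim, so they neither back this value nor oppose it.

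Apaf1, the scaffold of the apoptosome, has 3 probes on the minus strand of chromosome 10. A_51_P417701, at chr10:90419634-90419693, gave -0.45, -0.75, -0.78, -0.63 and -0.35 with AP5 and -1.28, -1.13, -0.96, -1.19 and -1.08 with vehicle. The groups did not overlap, and AP5 5 and AP5 1 were the highest. This probe rose by 0.54 ± 0.09 (SE), or 1.45-fold (95% interval 1.26 to 1.66; adjusted p = 7.05e-04, limma). NVP and Ro25 gave 0.02 (interval -0.19 to 0.23) and 0.05 (interval -0.15 to 0.25) above vehicle.

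The second Apaf1 probe, A_51_P368696 (chr10:90420904-90420963), lies 1.27 kb from the first and was dimmer, with a median red signal of 98.1 with vehicle and 133 with AP5. Its ratios were 0.27, -0.06, -0.11, -0.00 and 0.18 with AP5, and -0.20, -0.10, -0.20, -0.31 and -0.23 with vehicle. The groups overlapped at AP5 3. The rise was 0.26 ± 0.09 (SE), with an adjusted p of 0.0422 (limma), close to the threshold. That call ended on leaving out AP5 1, AP5 4, AP5 5, NVP 2, or vehicle 1, 3, 4 or 5 (adjusted p up to 0.122), and the deposited ratio of Feature Extraction gave a larger value, 0.84. The third probe, A_52_P621991 (chr10:90496974-90497033), lies 76.1 kb away and was not well above background on any AP5 array and on only 2 of 5 vehicle arrays. No fold is given for it, and its adjusted p was 0.0863 (limma). The probes of this gene therefore gave 2 rises of unequal size and 1 value that did not pass.

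Bmf, Bad, Bax and Bak1 are the members that did not pass the test between AP5 and vehicle. Bax, measured by 10 spots of probe A_51_P254541 on each array (span chr7:45334141-45334296, minus strand), had the same mean in both groups, -0.04 ± 0.07 (SD, n = 5 each). Its difference was -0.00 with a 95% interval of -0.11 to 0.11 on the log2 scale. Changes larger than 1.08-fold lie outside this interval, which takes no account of slides. With slide as a fixed block in the fit, the difference was -0.08 ± 0.17 (SE). The spots of 1 array differed with an SD of 0.02 to 0.08 (median 0.04), against 0.07 between arrays within a group.

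Bak1, the other pore former, has A_51_P395011 at chr17:26747611-26747670 and A_52_P225207 at chr17:26748876-26748935, both on the minus strand. They differed between AP5 and vehicle by 0.07 (interval -0.07 to 0.20) and 0.12 (interval -0.03 to 0.27). The vehicle and AP5 arrays of both probes overlapped. Bmf, a BH3-only gene known to respond to loss of attachment, was measured at chr2:118224017-118224076 (A_51_P482239) and chr2:118220224-118220283 (A_52_P384394), both on the minus strand. Its differences were 0.02 (interval -0.12 to 0.15) and 0.11 (interval -0.15 to 0.36). Bmf A_51_P482239 was dim, with red signals of 95.6 to 189.

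Bad is the BH3-only protein that survival kinases hold inactive by phosphorylation. Its probe A_51_P419364 (chr19:7009172-7009231, plus strand) gave -0.79, -0.50, -0.59, -0.43 and -0.90 with AP5, and -0.32, -0.51, -0.60, -0.46 and -0.28 with vehicle. AP5 1 and AP5 5 were the lowest arrays, and the groups overlapped. The log2 difference was -0.21 ± 0.08 (SE) with an adjusted p of 0.0752 (limma), and it passed, lower with AP5, without AP5 4, without vehicle 3 or with the astrocyte marker mean as a covariate (-0.23, adjusted p = 0.0196). The other probe named Bad, A_52_P614762, lies on the opposite strand at chr19:7018148-7018207 and gave -0.04 (interval -0.18 to 0.09). Both Bad probes were dim, with red signals of 99.5 to 185 and 101 to 169.

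**Figure D2:**
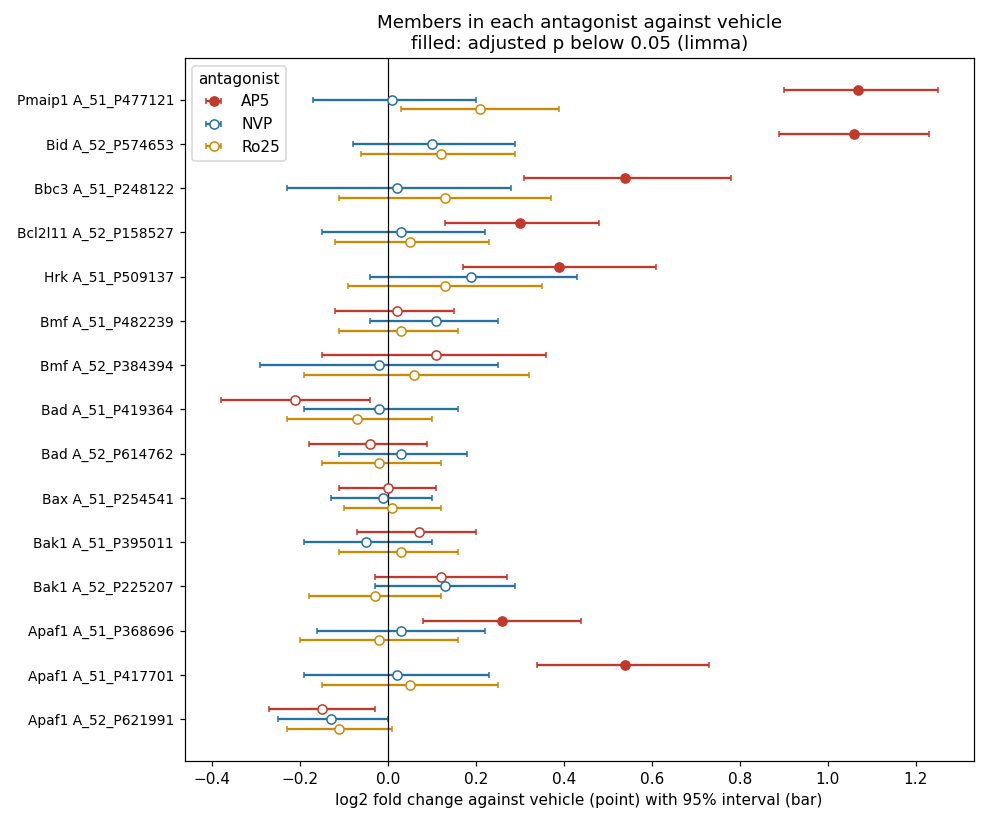
Log2 fold change of each member probe (y axis) in AP5, NVP and Ro25 against vehicle (x axis); points are limma estimates over 5 arrays a group (4 for NVP), bars are 95% intervals, and filled points have an adjusted p below 0.05. Only AP5 has filled points: 7 of them, all to the right of 0.

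Neither of the other antagonists gave a called member. Against vehicle, the 15 member probes ran from -0.13 to 0.19 with NVP and from -0.11 to 0.21 with Ro25, with medians of 0.02 and 0.03. limma called 0 of 28653 probes in either comparison (0%), with 2334 and 1631 probes at an unadjusted p under 0.05. Of the member probes, 0 and 1 had such an unadjusted p, the 1 being Pmaip1 with Ro25. Since nothing on the array passed, these members cannot be set apart from other genes. The intervals given above for some members bound a change only as far as slides did not differ. No slide held both NVP and vehicle arrays, and vehicle 2 was the only vehicle array on a slide with Ro25. NVP against Ro25 also gave 0 calls (0%), with 484 probes at an unadjusted p under 0.05, of which 1 was a member, Pmaip1.

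AP5 was then compared with the other antagonists directly. These comparisons use the same AP5 arrays, so they are not independent of the first. The same 4 probes were called higher in both: Pmaip1, Bid, Bbc3 and Apaf1 A_51_P417701. Against NVP, 4 of 15 member probes were called, where 3.73% of all probes were called and 2.52% were called higher. Against Ro25 it was again 4 of 15, where 5.66% were called and 4% were called higher. Pmaip1 differed by 1.06 ± 0.09 (SE) from NVP and by 0.86 ± 0.08 from Ro25, with adjusted p of 4.48e-07 and 2.19e-06 (limma).

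Bid differed by 0.96 ± 0.09 (SE) from NVP and by 0.94 ± 0.08 from Ro25. Apaf1 A_51_P417701 differed by 0.52 ± 0.10 and 0.49 ± 0.09, with adjusted p of 0.00396 and 0.00326 (limma). Every AP5 array lay above every NVP array for 5 of 15 member probes, and above every Ro25 array for 4 of 15, these 2 genes among them. The share of all probes that did so was not computed. Bbc3 differed by 0.52 ± 0.12 from NVP (adjusted p = 0.0167, limma) and by 0.42 ± 0.11 from Ro25 (adjusted p = 0.0345). The Bbc3 call against NVP ended without AP5 1, NVP 1 or NVP 2 (adjusted p up to 0.0712), and the call against Ro25 without AP5 1, AP5 5 or Ro25 2, 4 or 5 (up to 0.0972). Both Bbc3 calls also ended when only the 2 groups were fitted (adjusted p = 0.0807 and 0.0928), and with marked spots kept so did those of Bbc3 (0.0693 and 0.0884) and Apaf1 A_51_P417701 (0.0531 and 0.182). Hrk differed by 0.19 (interval -0.04 to 0.43) from NVP and by 0.26 (interval 0.04 to 0.48) from Ro25, and Bcl2l11 by 0.27 (interval 0.09 to 0.46) and 0.25 (interval 0.08 to 0.42); neither gene passed in either comparison. Bcl2l11 passed in both without AP5 2, and Apaf1 A_51_P368696 passed against Ro25 without AP5 3 or without Ro25 3. In the main fit, AP5 thus differed from each of the other antagonists in a direct test for Pmaip1, Bid, Bbc3 and Apaf1 A_51_P417701. The doses were not matched, and the other Apaf1 probes did not pass in that fit.

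Slides bear on every AP5 value, and on NVP and Ro25 against vehicle. The arrays lay on 5 slides, and no slide held both AP5 and vehicle: AP5 1 to 4 filled 1 slide, and AP5 5 shared a second with NVP 1 and NVP 3. On that shared slide, AP5 5 minus the mean of the NVP arrays was 1.17 for Pmaip1, 1.05 for Bid, 0.97 for Bbc3 and 0.87 for Apaf1 A_51_P417701. It was 0.51 for Bcl2l11, 0.40 for Hrk and 0.38 for Apaf1 A_51_P368696, and 0.04 for Bax. The members called against vehicle were thus all higher in the 1 AP5 array that had a neighbour of another group. That array was also the AP5 array lowest in astrocyte markers, and the part of this in the differences was not tested. On the slide of NVP 2 and 4 with Ro25 1 and 4, NVP minus Ro25 was -0.23 for Pmaip1 and -0.01 for Bid. On that of Ro25 2, 3 and 5 with vehicle 2, Ro25 minus vehicle was 0.18 for Bid, 0.02 for Bbc3 and -0.03 for Hrk. With slide as a fixed block, AP5 against NVP has these same values, since AP5 then rests on AP5 5 alone. The adjusted p was 0.00317 for Pmaip1, 0.0138 for Bid, 0.039 for Bbc3 and 0.0315 for Apaf1 A_51_P417701 (limma), with the spread taken from the other arrays and the lone AP5 array assumed to vary like them.

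With the same block, AP5 against vehicle gave 0 called members, where only 0.0384% of all probes were called. Its values were 0.92 ± 0.25 (SE) for Pmaip1, 1.23 ± 0.28 for Bid, 0.92 ± 0.32 for Bbc3 and 1.08 ± 0.27 for Apaf1 A_51_P417701, with adjusted p of 0.292, 0.229, 0.422 and 0.253 (limma). The differences were as large or larger, except for Pmaip1, and the standard errors about 3 times as large, because AP5 and vehicle are then linked only through the other groups. Against Ro25 the block likewise left 0 called members. In the green channel, which carried the same reference RNA on every array, 1704 of 28653 probes were called between AP5 and vehicle arrays. Of the members, Bid alone was among them, at 0.10 in green against 1.27 in red (adjusted p = 0.0178 and 4.42e-07, limma). Pmaip1, Bbc3, Hrk and Apaf1 A_51_P417701 moved by -0.03, 0.04, -0.02 and 0.01 in green. The widest green move of a member was that of Bak1 A_52_P225207, at -0.45 (adjusted p = 0.231, limma), with -0.42 in red.

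**Figure D3:**
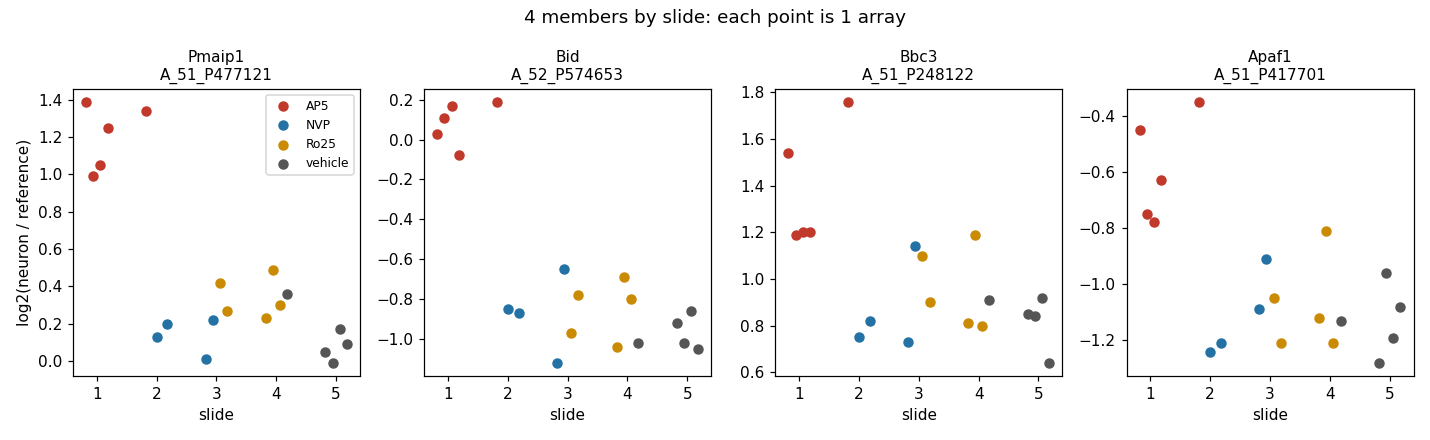
Log2 of neuron over reference (y axis) of Pmaip1, Bid, Bbc3 and Apaf1 by slide (x axis, 5 slides); each point is 1 array, coloured by group. The AP5 array on slide 2 lies above its NVP neighbours, by 1.17 for Pmaip1; it is among the slide 1 AP5 arrays for Pmaip1 and above all of them for Bid, Bbc3 and Apaf1.

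The cultures held other cells as well as neurons. All 11 neuron markers were well above background on every array. Their mean log2 ratio was 4.98 ± 0.08 (SD, n = 5) with AP5 and 4.74 ± 0.16 with vehicle. With NVP it was 4.91 ± 0.09 (n = 4) and with Ro25 4.90 ± 0.13. Against vehicle, AP5 called 4 of these 11 higher and 0 lower, where 18.1% of all genes were called. NVP and Ro25 each had 5 of the 11 at an unadjusted p under 0.05 against vehicle (limma). AP5 against NVP and AP5 against Ro25 each called 0 of them. All 12 astrocyte markers were above background too, with means of 3.86 ± 0.56 with AP5 and 3.71 ± 0.49 with vehicle. Of the other lists, AP5 against vehicle called 3 of 9 microglia markers lower, 2 of 10 oligodendrocyte lineage markers higher, 1 of 12 astrocyte and 1 of 3 endothelial markers higher, and 0 of 6 fibroblast markers (0 at an unadjusted p under 0.05, limma). Their part in the rise of the members was not tested.

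In each group 1 array stood low in astrocyte markers: AP5 5 at 2.95, NVP 4 at 2.92, Ro25 3 at 2.72 and vehicle 3 at 2.87, where all others lay between 3.68 and 4.43. Apaf1 A_51_P417701 was at its group's highest on all 4 of these arrays, with -0.35, -0.91, -0.81 and -0.96. Of the 27323 probes with a value on every array, 6.69% were likewise highest on all 4. Bbc3, Hrk and Bid were highest on 3 of the 4, as were 10.7% of all probes. Pmaip1 was highest on 2 (17.1% of all probes) and lowest on 1. Bcl2l11 was highest on 1 and lowest on 2, and both Bad probes and Bak1 A_51_P395011 were lowest on 2 (12% of all probes). Each group held only 1 such array, so the low side has no spread of its own. After group means were taken out, Pearson's r of member probes with the astrocyte mean ran from -0.91 (Apaf1 A_51_P417701) to 0.63 (Bak1 A_51_P395011). The part of astrocytes in the AP5 differences was not tested. Without these 4 arrays, Pmaip1, Bid, Bbc3, Hrk and Apaf1 A_51_P417701 were still called, while Bcl2l11 (0.21, adjusted p = 0.0897, limma) and Apaf1 A_51_P368696 (0.23, adjusted p = 0.104) were not.

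**Figure D4:**
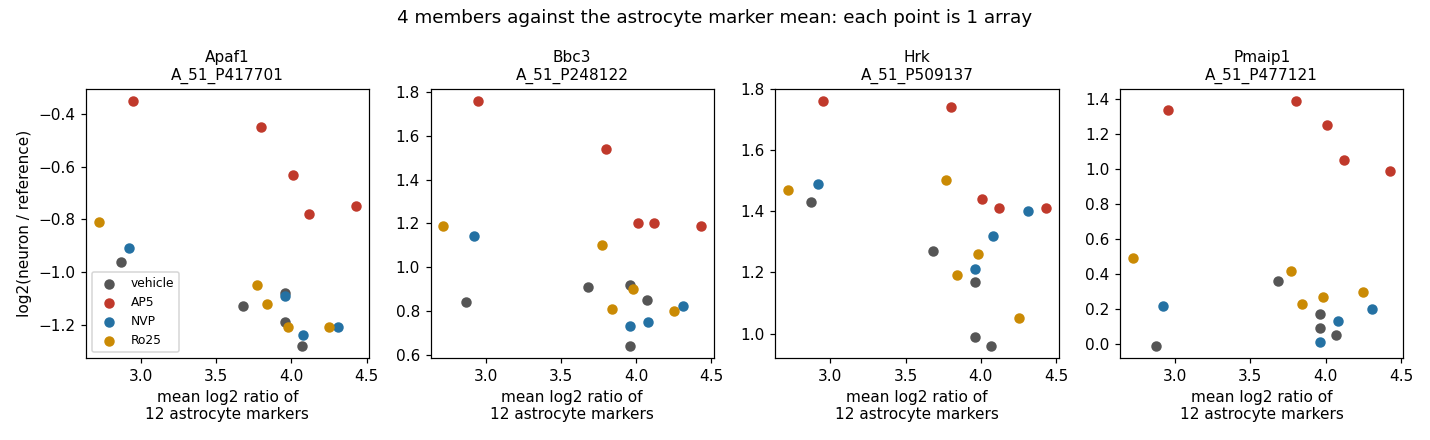
Log2 of neuron over reference (y axis) of Apaf1, Bbc3, Hrk and Pmaip1 against the mean log2 ratio of 12 astrocyte markers (x axis); each point is 1 array, coloured by group. Within each group the array at the far left, below 3.0 on the x axis, has that group's highest Apaf1 value, and AP5 arrays lie above the other groups at both ends for Apaf1 and Pmaip1.

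Other genes of the death pathway give the setting. They were taken from lists drawn up for this pathway, and a gene stands for its brightest probe that passed. With 1 such probe per gene, 18.1% of all genes were called in AP5 against vehicle, a share against which the counts below can be read. Of 4 measured anti-apoptotic genes of the Bcl2 family, 0 rose and 2 fell with AP5: Bcl2l1, which encodes Bcl-xL, by -0.25 ± 0.05 (SE; adjusted p = 0.00376, limma), and Bcl2 by -0.28 ± 0.09 (adjusted p = 0.04). The Bcl2l1 probes ran from -0.27 to 0.05, and the Bcl2 call ended on leaving out AP5 1, 3, 4 or 5 or vehicle 1, 2 or 4 (adjusted p up to 0.0969). Of 9 caspases, only Casp2, an initiator caspase, was called (0.43 ± 0.08, adjusted p = 0.00119). The median was -0.07 for the caspases, of which 3 had an unadjusted p under 0.05, and -0.18 for the anti-apoptotic genes, against 0.01 for all probes; neither list was tested as a whole.

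Of 8 measured death receptor genes, 1 was called: Cflar, whose product blocks caspase-8, was higher by 0.85 ± 0.21 at its brightest probe (adjusted p = 0.00862, limma), with its 6 probes between -0.21 and 0.85. Of 8 mitochondrial death effectors, 1 was called, Endog, a mitochondrial nuclease (0.23 ± 0.06, adjusted p = 0.0177), and it was lost without AP5 1 or vehicle 5 (up to 0.0546). Of 7 inhibitor of apoptosis genes, Birc2 was called higher (0.24, adjusted p = 0.0175), though not without vehicle 1 (0.0532), and Naip5 lower (-0.38, adjusted p = 0.00364). Naip5 lost its call with the red channel alone (-0.02, adjusted p = 0.876). With NVP and Ro25, Naip5 differed from vehicle by -0.36 and -0.32, close to its value with AP5, though neither was called. None of the 7 other genes with Bcl2 homology was called, and none had an unadjusted p under 0.05; the smallest p was that of Bcl2l14 (-0.12, adjusted p = 0.431).

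p53 and its target genes, and transcription factors known to control BH3-only genes, had calls in both directions. Of 19 genes of the p53 list, 2 were called higher and 2 lower, a share near that of all genes, with a median of 0.08; Gadd45a rose by 0.61 ± 0.07 (SE), while Btg2 and Zmat3 fell by 0.33 and 0.20 (adjusted p = 8.22e-06, 0.00185 and 0.00439, limma). Of 16 transcription factors known to control BH3-only genes, 4 were higher and 3 lower. Foxo1 changed by -0.94 ± 0.12 (SE), Jun by 0.54 ± 0.08 and Atf3 by 0.67 ± 0.14 (adjusted p = 2.42e-05, 2e-04 and 0.00349, limma). Foxo1 RNA was thus lower in the group where the RNA of Bcl2l11 and Bbc3 was higher. Foxo1 RNA does not measure the activity of FOXO proteins, and a link between these genes was not tested. With NVP and Ro25, Foxo1 differed from vehicle by -0.07 and -0.10, Jun by 0.04 and 0.09 and Atf3 by -0.08 and -0.01, and no gene of these lists was called. With slide as a fixed block, no gene named from these lists was called in AP5 against vehicle. With marked spots kept, Bcl2l1 (adjusted p = 0.0597, limma), Bcl2 (0.112), Naip5 (0.977), Birc2 (0.0844), Endog (0.11), Zmat3 (0.0978) and Atf3 (0.0586) also lost their calls, and with the deposited ratio so did Birc2 (0.118), Endog (0.083) and Naip5 (0.304).

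The pattern of Pmaip1 over the 19 arrays was compared with that of the other genes, 18275 genes with a value on every array, by Pearson's r. Among the 5 genes most like it were Camkk1, Ccdc126, Cavin2 and Gpsm1, each at 0.97, with AP5 minus vehicle of 0.88, 0.87, 1.08 and 0.33. Among the members, Bid came at rank 57 (r = 0.93), Apaf1 at rank 178 (0.89) and Bbc3 at rank 235 (0.88). Bcl2l11 (0.79) and Hrk (0.70) followed, Bak1 (0.32), Bmf (0.29) and Bax (0.09) were far down, and Bad, at -0.66, ranked 17459. These values describe arrays that share treatment groups, slides and a reference, and they carry no p.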

How the data were processed

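RNA of 19 neuron samples in 4 groups was measured on 5 slides of two-colour Agilent mouse arrays. The intensity of each spot and a log10 ratio were deposited, made with Feature Extraction 9.5.3.1 per the file headers (11.0 per the submitters' processing notes). The authors' processed table holds log2 values of unstated scale and centring, which correlated with the ratios computed here at 0.9986 to 0.9998 and had column medians of 0.0345 to 0.0478. The other deposited columns used were quality marks and probe names. Spots marked as uneven or outlying were left out (1642 on vehicle 5, and 117 to 266 on each other array). Background was corrected with normexp (offset 50) and ratios were normalized by loess. Probes with red well above background on at least 4 arrays were kept (28653 of 41174). limma 3.58.1 in R 4.3.3 fitted all arrays with a mean per group; tests were two-sided, with Benjamini-Hochberg adjustment within each of 6 comparisons. Simulated data were used to test the fit. Median red signals ran from 135.5 to 177.8, with 24924 to 28531 probes above background and 0 saturated spots, and the number of arrays limits the precision (median SE 0.08). Every member probe was named. From each list, up to 3 called genes of smallest p were named, and the 5 genes most like the member with the largest change, of which 1 is not reported here. The members and lists were chosen with earlier results of these data known. Samples were not paired by replicate number in the main fit. Of 27 same-numbered pairs from different groups, 8 had an r over 0.1 (r from -0.61 to 0.74, median -0.21). Whether groups shared cultures under other numbers was not tested. Alternatives covered background, scaling, filters, probe choice, slide, replicate number, astrocyte markers and each array left out.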

Additional observations from a re-analysis of the deposited data

Results flagged for a closer look

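Within 60 groups of member values tested for a sample far from the rest, 4 had one, where chance marks about 1 in 20 groups. Bbc3 was lowest on vehicle 5, at 0.64, with the other vehicle arrays between 0.84 and 0.92. Bad A_51_P419364 was highest on Ro25 4, at -0.43, with the others between -0.54 and -0.51. Bax was lowest on AP5 4, at -0.17, with the others between -0.03 and 0.02. Bak1 A_51_P395011 was highest on NVP 3, at -0.72, with the others between -0.99 and -0.95.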

How the results depend on the processing

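The number of member probes called in AP5 against vehicle was 7 and ran from 5 to 7 with each array left out in turn. It was 4 with marked spots kept in the background fit (3.35% of all probes called) and 0 with slide as a fixed block. Against NVP and Ro25 it was 4 each, 3 to 5 with 1 array left out, 2 each with marked spots kept, 6 each with the red channel alone, 6 against Ro25 with the astrocyte covariate, and 0 against Ro25 with the fixed slide block; the slide-blocked calls against NVP rest on 1 AP5 array. The other 3 comparisons gave 0 under every alternative run. Over all probes, the 4869 called in AP5 against vehicle became 959 with marked spots kept, 11 with the slide block, 2993 with the red channel alone and 7760 with the astrocyte mean as a covariate. That covariate, and slide as a random block (consensus correlation -0.0762), each gave 9 member calls, of which 2, Bad A_51_P419364 and Apaf1 A_52_P621991, were lower. With the replicate number as a block, 6 members were called; Apaf1 A_51_P368696 lost its call (adjusted p = 0.064, limma), Bbc3 lost it against NVP (0.0559) and Ro25 (0.0749), and no other member call changed. With marked spots kept, Hrk (0.17, adjusted p = 0.942), Bcl2l11 (0.262) and Apaf1 A_51_P368696 (0.127) lost theirs. Over 2898 single member values under alternatives, 2833 kept their side of the threshold, 46 lost and 19 gained a call, and 0 calls reversed. Direction was compared only where a value was called. Uncalled values could change sign, as Hrk did in AP5 against NVP, from 0.19 to -0.22 with the deposited ratio. The total includes the 3 comparisons without calls, where none could be lost. The causes were not tested. The dim probes (Apaf1 A_51_P368696 and A_52_P621991, both Bad probes and Bmf A_51_P482239) had little signal over background. Hrk had a dim green signal, and its call also ended with the red channel alone (0.23, adjusted p = 0.299, limma). The part of signal strength in these changes was not tested.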
